A study of Mus musculus with 6 samples.

Results

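Mitochondria fuse and divide, and the proteins that carry out both processes are encoded in the nucleus, as is the machinery that copies and transcribes mitochondrial DNA (mtDNA). The cleaving mouse embryo inherits its mitochondria from the oocyte and partitions them among its blastomeres. The 10 genes described here were chosen by name and role from 48967 genes: Mfn1, Mfn2 and Opa1 for fusion, Dnm1l, Fis1 and Mff for fission, and Tfam, Polg, Polrmt and Tfb2m for mtDNA maintenance and transcription. All 10 were found and all 10 passed the filter on low counts, which 16020 genes passed.

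RNA was sequenced from wild-type F1 (C57Bl/10 X CBA/H) mouse 2-cell embryos in 3 control and 3 delipidated libraries, each from a pool of 3 embryos. Delipidated embryos had been treated as zygotes with cytochalasin B, centrifuged, and relieved of their lipid droplets by aspiration through an opening in the zona pellucida. Both groups were then cultured in KSOM medium without fatty acids from 0.5 to 2.0 days post coitum. The controls are described as cultured in vitro and not as sham-manipulated, so lipid removal and the manipulation itself cannot be told apart.

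All pools were drawn from a single collection of embryos, so p-values measure only the spread between these samples. Gene counts summed to 12164963, 16165958 and 12980787 in control 1, 2 and 3 and to 20059460, 16332103 and 14683741 in delipidated 1, 2 and 3. Genes with a count numbered 22855, 22437 and 20582 in control 1, 2 and 3 and 17091, 19408 and 20158 in delipidated 1, 2 and 3. Every delipidated library thus had fewer such genes than every control, and the cause was not tested. Delipidated 1 had the largest total and the fewest genes with a count. Its correlations with the other libraries across genes (log2 CPM) were 0.838 to 0.869, against 0.866 to 0.903 between the others. Each pool held 3 embryos at the 2-cell stage, so cell numbers were alike by design. The amount of RNA per embryo cannot be read from scaled counts.

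No difference between the groups passed the test for any of the 10 genes. A call required both an adjusted p under 0.05 and an absolute log2 fold change above 1. The edgeR quasi-likelihood test called 0 of the 10 and 0 of all 16020 genes (0%), with an adjusted p of 1.00 for each of the 10. At an unadjusted p under 0.05, 0 of the 10 were higher or lower, against 1.15% of all genes higher and 1.74% lower. Without a filter on low counts, DESeq2 called 9 genes higher and 40 lower, and edgeR 5 higher and 25 lower, with none of the 10 among them. The groups overlapped for all 10 genes in CPM (counts over the TMM-scaled total of tested genes), while among all genes delipidated libraries lay wholly above the controls for 3.81% and wholly below for 5.05%.

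How firmly a difference can be bounded varied with the gene. For Mfn1, Opa1, Dnm1l, Mff, Polrmt and Tfb2m the 95% interval of the log2 fold change lay between -1 and 1 in the main fit. For Mfn2, Fis1, Tfam and Polg it extended beyond. Among all genes tested, 24.9% had an interval that lay between -1 and 1. Over the 14 edgeR fits, alternatives included, the interval stayed between these bounds in all 14 for Mfn1, Opa1 and Tfb2m, in 13 for Polrmt, in 11 for Mff and in 10 for Dnm1l. It reached -1.80 for Polrmt and 1.39 for Dnm1l with the most counted exonic part, and 1.07 for Mff without delipidated 2.

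**Figure D1:**
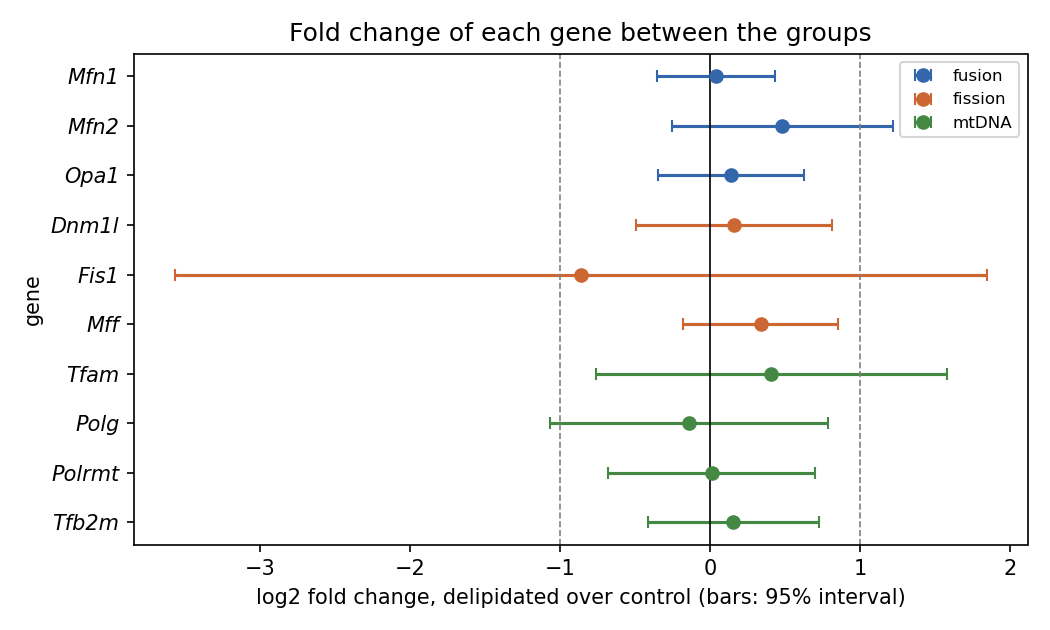
Log2 fold change (delipidated over control) on the horizontal axis for each of the 10 genes on the vertical axis, with bars for the 95% interval and colours for role. Dashed lines mark -1 and 1, and all 10 intervals include 0.

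Mfn1 and Mfn2 are GTPases of the outer membrane that join mitochondria. Mfn1 measured 387, 370 and 301 CPM in control 1, 2 and 3 and 370, 348 and 370 CPM in the delipidated libraries. The values of both groups lay close together, with control 3 lowest. In edgeR the log2 fold change of Mfn1 was 0.04 (SE 0.18, 95% interval -0.35 to 0.43), and it was -0.06 without control 3. With each library left out in turn it ranged from -0.06 to 0.12.

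Mfn2 was the more variable mitofusin. It measured 71.0, 170 and 68.2 CPM in the controls and 155, 131 and 146 CPM in the delipidated libraries. Control 1 and control 3 lay below every delipidated library, whereas control 2 was the highest of all. In edgeR the log2 fold change of Mfn2 was 0.48 (SE 0.34, 95% interval -0.26 to 1.22). It was 1.05 without control 2, where the 95% interval of 0.50 to 1.60 excluded 0. That interval is not adjusted for the number of genes, and this edgeR fit called 0 genes (lowest adjusted p over all genes 0.443). Without control 1 the log2 fold change of Mfn2 was 0.28 and without control 3 it was 0.26. The ratio of Mfn1 to Mfn2 in CPM per kb was 4.63, 1.85 and 3.74 in the controls and 2.03, 2.25 and 2.16 in the delipidated libraries, so that control 2 again lay apart from the other controls.

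Opa1, the GTPase that fuses inner membranes and shapes cristae, measured 248, 185 and 217 CPM in the controls. In the delipidated libraries it measured 226, 194 and 297 CPM. Delipidated 3 was highest and control 2 lowest, and the groups overlapped. For Opa1, edgeR gave a log2 fold change of 0.14 (SE 0.22, 95% interval -0.35 to 0.63), and it was -0.05 without delipidated 3 within a range of -0.05 to 0.27 as each library was left out.

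Among the fission genes, Dnm1l encodes the dynamin-related GTPase that constricts mitochondria. It measured 139, 108 and 88.3 CPM in the controls and 90.7, 105 and 180 CPM in the delipidated libraries. Delipidated 3 was the highest library and the others intermingled. For Dnm1l, the log2 fold change in edgeR was 0.16 (SE 0.30, 95% interval -0.49 to 0.81), and it was -0.20 without delipidated 3, with a range of -0.20 to 0.36 over the libraries left out.

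Mff, an outer-membrane receptor for the Dnm1l product, measured 169, 135 and 168 CPM in the controls and 191, 152 and 253 CPM in the delipidated libraries. Delipidated 1 and 3 lay above all controls, and delipidated 2 lay among them. The difference in Mff, as a log2 fold change in edgeR, was 0.34 (SE 0.24, 95% interval -0.18 to 0.85). It was 0.12 without delipidated 3 and 0.50 without delipidated 2, the ends of the range over libraries left out.

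Fis1, a small tail-anchored protein of the outer membrane, was barely counted. Its counts were 43, 85 and 85 in the controls and 0, 45 and 80 in the delipidated libraries. Delipidated 1 had none, and the groups overlapped. That library had the largest total but also the fewest genes with a count. For independent counts a 0 there would allow up to 0.148 CPM (3 counts, counting error only). A read can count in several parts, so this limit is too low. In edgeR the log2 fold change of Fis1 was -0.86 (SE 1.24, 95% interval -3.57 to 1.84), and it was -0.27 without delipidated 1 (SE 0.76) and -1.88 without delipidated 3. The replicate block gave -1.91 and limma-voom -3.19, so the size of any difference was poorly determined.

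Tfam, which packages mtDNA and activates its transcription, was also low. It had 74, 115 and 141 counts in the controls and 305, 136 and 117 in the delipidated libraries, or 6.24, 6.95 and 10.7 CPM and 15.1, 8.35 and 8.26 CPM. Delipidated 1 was highest and the other libraries overlapped. Of its counts in delipidated 1, 95.1% lay on 5 consecutive exonic parts with 58 counts each, and in control 3 the same 5 parts held 25 each, or 88.7%. Fitted in edgeR, Tfam had a log2 fold change of 0.41 (SE 0.53, 95% interval -0.76 to 1.58), and it was 0.06 without delipidated 1 and 0.68 without control 3.

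Polg, the catalytic subunit of the mtDNA polymerase, measured 25.1, 31.3 and 23.9 CPM in the controls and 15.7, 39.4 and 17.9 CPM in the delipidated libraries. Delipidated 2 was highest, and delipidated 1 and 3 were lowest. The fit gave Polg a log2 fold change of -0.14 (SE 0.42, 95% interval -1.07 to 0.79), and it was 0.10 without delipidated 1, 0.04 without delipidated 3 and -0.68 without delipidated 2. Parts that overlap Fanci on the opposite strand held 15.6% of its counts, and the counts of the 2 genes cannot be separated there.

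Polrmt, the mitochondrial RNA polymerase, measured 56.7, 93.3 and 79.2 CPM in the controls and 83.9, 97.4 and 49.3 CPM in the delipidated libraries. The libraries of both groups covered nearly the same range. Polrmt had a fitted log2 fold change of 0.01 (SE 0.32, 95% interval -0.68 to 0.70). It was -0.16 without control 1, -0.06 without delipidated 1, -0.20 without delipidated 2 and at most 0.24, without delipidated 3.

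Tfb2m, the factor that opens mitochondrial promoters together with the Polrmt product, measured 134, 163 and 146 CPM in the controls and 227, 118 and 148 CPM in the delipidated libraries. Delipidated 1 was highest and delipidated 2 lowest. Its fitted log2 fold change was 0.15 (SE 0.26, 95% interval -0.42 to 0.72), and it was -0.15 without delipidated 1, the low end of a range up to 0.34 over the libraries left out.

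The count of the most counted exonic part, in place of the sum over parts, moved several of these values. The log2 fold change was then 0.08 for Mfn1 (SE 0.24), 0.84 for Mfn2 (SE 0.53), -0.28 for Opa1 (SE 0.29), 0.37 for Dnm1l (SE 0.48), 0.10 for Mff (SE 0.30), 0.12 for Polg (SE 0.89) and -0.63 for Polrmt (SE 0.54). Fis1 had too few counts for this fit. With limma-voom Dnm1l had 0.10 and Polg -0.29, and with the replicate block Polg had -0.26.

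Levels were compared between genes in CPM per kb of summed exonic part length. Mfn1 (median 60.5 over the 6 libraries, range 49.2 to 63.3) and Tfb2m (52.4, 42.2 to 80.8) led the order and overlapped each other. Opa1 (28.1), Mfn2 (26.6) and Dnm1l (25.9) came next by median and overlapped, then Polrmt (17.4) and Mff (17.2). Mfn2 was not separated from these last genes, since at 13.7 and 13.1 in control 1 and 3 it lay below Mff, at 17.3 and 17.2. Fis1 (2.56), Polg (2.28) and Tfam (1.87) were lowest and overlapped, and every one of the 7 genes above them exceeded them in each library. The median over all genes tested was 3.25 CPM per kb, so that Mfn1 stood at percentile 94.96 and Tfam at percentile 39.0.

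The order depends on the length used, and with the most counted part also across the gap between the 3 lowest genes and the others. Per kb of that part of each gene, Tfam (11.8) ranked 6 of 10, above Mfn2 (9.04) and Opa1 (7.35). The parts were unlike, with 150 coding bases in Tfam, 1443 coding and UTR bases in Mfn2 and 3005 UTR bases in Opa1. Mff has 77.6% of its part length, but 0.281% of its counts, on parts found only in non-coding transcripts. Per kb of coding parts alone, a scale added after the data were seen, Mff measured 125 and ranked 3 of 10, behind Mfn1 (160) and Tfb2m (138). Tfam, with 8.43% of its length in coding parts, measured 12.2 on that scale and Polg 5.59. There Tfam, Polg and Fis1 ranked 8, 9 and 10, so the coding scale kept the same 3 lowest genes.

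**Figure D2:**
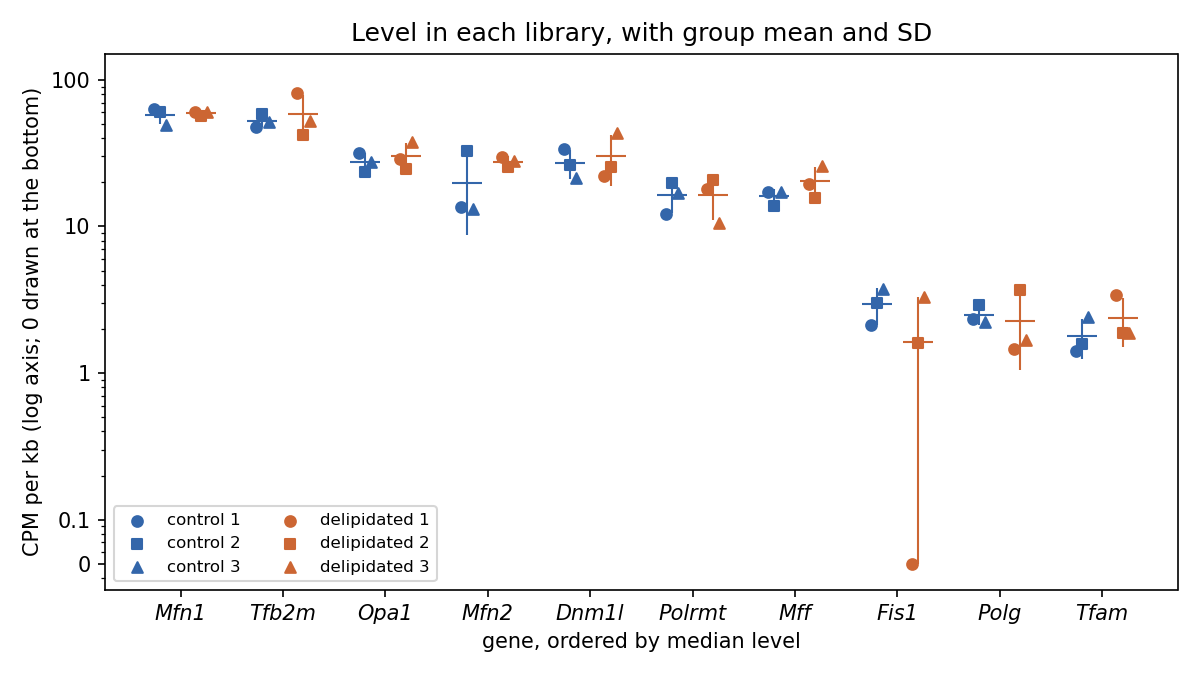
CPM per kb of summed exonic part length (vertical log axis) in each library for the 10 genes (horizontal axis), with the group mean (dash) and SD (bar) of 3 libraries. On this scale Fis1, Polg and Tfam sit below the other 7 genes in every library, and Fis1 is at 0 in delipidated 1.

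Counts on individual exonic parts showed which alternative coding exons were read in 2-cell embryos. A read that crosses a boundary is counted in each part it touches, so part counts are described without a test. The exons below were chosen after their counts were seen, and their whole number of codons means that each can be kept or skipped without a frame shift. Capitals mark the exon and lower case the 12 bases on each side in a spliced GENCODE vM21 transcript (GRCm38), printed 5′ to 3′ on the transcript strand.

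Dnm1l has an alternative exon of 39 bases near its 5′ end (chr16:16342697-16342735, minus strand, coding). It had 0 counts in 5 libraries and 10 in delipidated 3, while the next part had 16 to 60 counts. The exon of 33 bases further downstream (chr16:16318445-16318477, minus strand, coding) had 86, 72 and 66 counts in the controls and 76, 65 and 168 in the delipidated libraries. The part before it had 78, 81 and 47 and 74, 85 and 155 counts, so the short exon was counted about as often as its neighbour.
Dnm1l exon of 39 bases: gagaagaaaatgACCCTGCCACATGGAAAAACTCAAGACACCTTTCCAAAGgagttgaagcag
Dnm1l exon of 33 bases: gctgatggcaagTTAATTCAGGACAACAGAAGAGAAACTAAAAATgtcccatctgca

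Opa1 has alternative exons of 54 bases (chr16:29588823-29588876, plus strand, coding) and 111 bases (chr16:29597586-29597696, plus strand, coding). The first had 30, 26 and 0 counts in the controls and 64, 30 and 32 in the delipidated libraries. The second had 23, 42 and 0 counts in the controls and 37, 18 and 52 in the delipidated libraries. The part between them had 79, 92 and 98 and 198, 56 and 145 counts, so both exons were counted less often than it in every library and were not counted in control 3.
Opa1 exon of 54 bases: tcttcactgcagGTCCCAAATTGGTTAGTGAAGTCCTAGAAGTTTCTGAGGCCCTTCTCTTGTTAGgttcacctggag
Opa1 exon of 111 bases: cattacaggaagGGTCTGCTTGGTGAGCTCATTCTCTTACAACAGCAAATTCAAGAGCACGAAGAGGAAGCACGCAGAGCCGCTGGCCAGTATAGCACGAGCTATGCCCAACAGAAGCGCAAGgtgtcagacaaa

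Mff has an exon of 75 bases (chr1:82737013-82737087, plus strand, coding) that had 0 counts in all 6 libraries. Its exon of 60 bases (chr1:82747083-82747142, plus strand, coding) had 70, 51 and 70 counts in the controls and 113, 120 and 104 in the delipidated libraries. The next coding part had 116, 80 and 105 and 254, 213 and 218 counts. The exon of 60 bases was therefore read in every library and the exon of 75 bases in none.
Mff exon of 75 bases: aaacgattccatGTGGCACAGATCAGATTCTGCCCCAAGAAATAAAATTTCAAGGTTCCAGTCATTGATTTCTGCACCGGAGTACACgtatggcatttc
Mff exon of 60 bases: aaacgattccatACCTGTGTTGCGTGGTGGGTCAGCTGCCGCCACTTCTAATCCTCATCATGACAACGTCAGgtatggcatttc

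**Figure D3:**
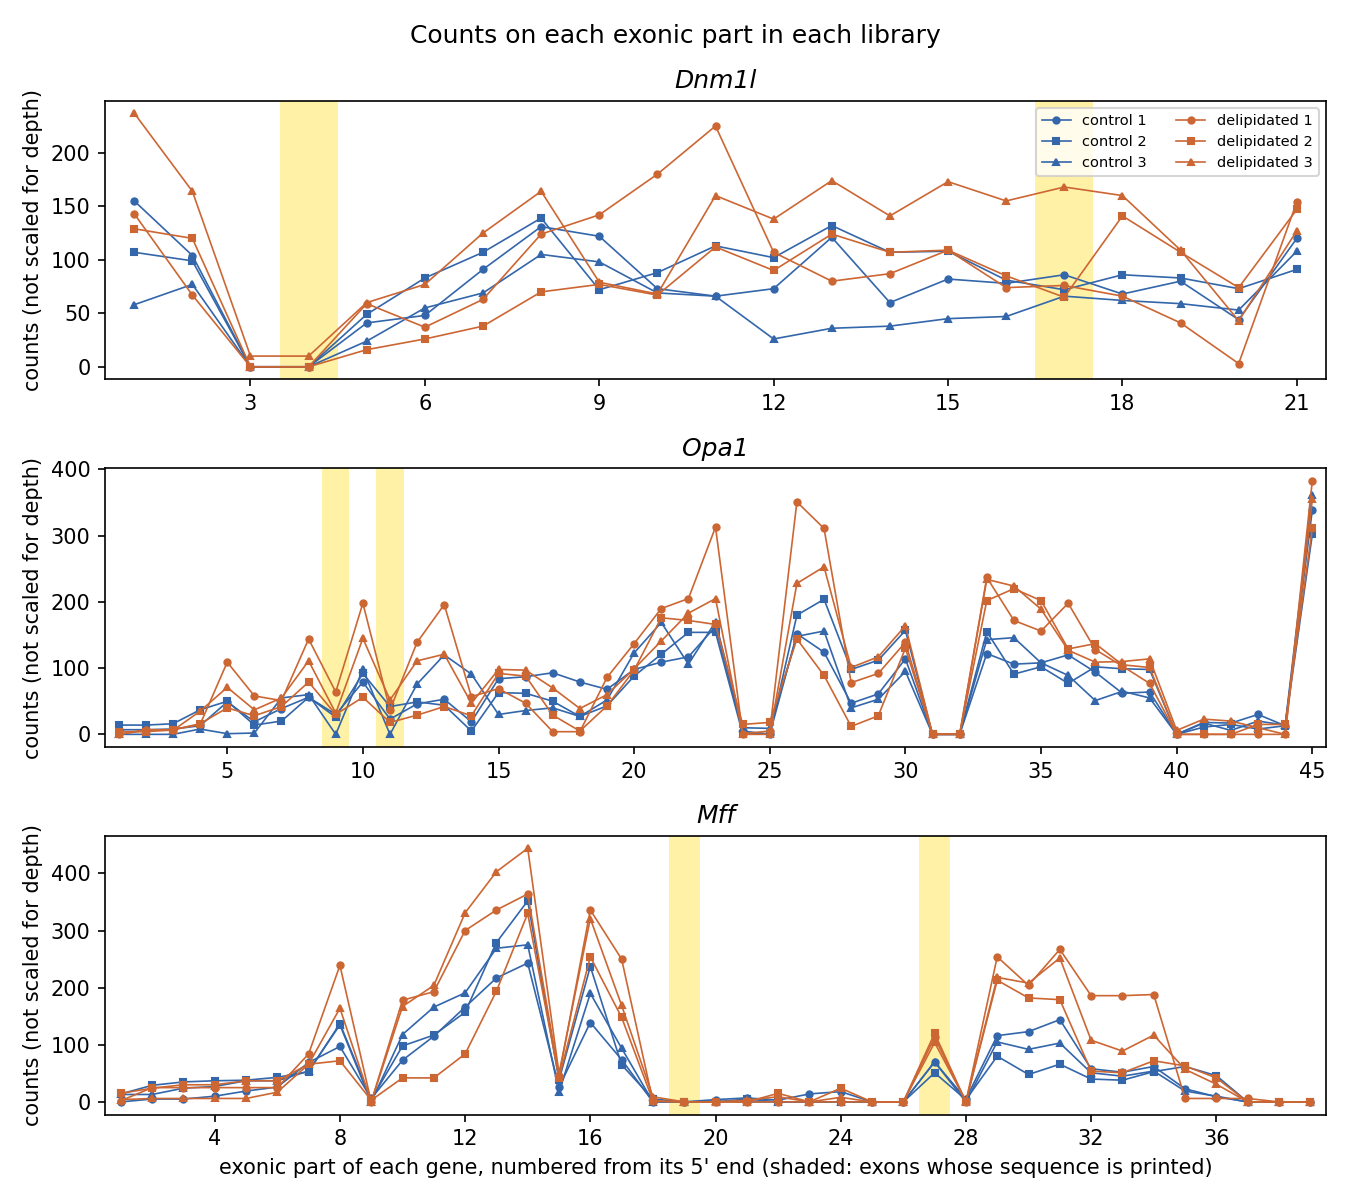
Counts (vertical axis, not scaled for depth) on each exonic part from the 5′ end (horizontal axis) of Dnm1l, Opa1 and Mff in each of the 6 libraries. Shading marks the printed exons, among which the Mff exon of 75 bases is at 0 throughout.

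A further 7 lists of related genes held 87 genes, of which 84 were tested and 0 were called in edgeR. At an unadjusted p under 0.05, 5 were higher and 1 lower, where the shares over all genes tested were 1.15% and 1.74%. Of the 5, Top1mt and Hsd17b10 passed the filter on low counts only through the delipidated libraries. No conclusion is therefore drawn from this count, nor from the count of genes wholly above the controls. The 5 became 3 without control 1, control 2, delipidated 1 or delipidated 2 and 2 without control 3. Without delipidated 3 the number of higher genes rose above 5. The 1 became 0 without control 2, control 3 or delipidated 3 and 3 without delipidated 1. The median log2 fold change over the 84 was 0.08, against -7.26e-04 over all genes tested. The delipidated libraries lay wholly above the controls for 7 of the 84 (Immt, Spire1, Cluh, Top1mt, Tefm, Hsd17b10 and Tk2), against 3.81% of all genes. They lay wholly below for 4 (Yme1l1, Kif5b, Endog and Gabpa), against 5.05%. Spire1, Cluh and Endog are named only for this, after their values were seen. None of the genes named next passed the adjusted test (adjusted p = 1.00 in edgeR for each).

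Of 16 membrane fusion and cristae accessory genes, 1 was higher and 1 lower at an unadjusted p under 0.05. Immt, the core organiser of cristae junctions, measured 62.7, 56.5 and 45.5 CPM in the controls and 86.9, 82.9 and 99.3 CPM in the delipidated libraries. Yme1l1, an inner-membrane protease that cleaves the Opa1 product, measured 101, 149 and 151 CPM in the controls and 89.5, 100 and 79.0 CPM in the delipidated libraries. The groups did not overlap for either gene. In edgeR the log2 fold change was 0.71 for Immt (SE 0.26) and -0.58 for Yme1l1 (SE 0.25). With the most counted part Yme1l1 had -0.24 (SE 0.35).

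Of 13 fission adaptors and regulators tested, 0 had an unadjusted p under 0.05. The most abundant per kb were March5, a ubiquitin ligase of the outer membrane (edgeR log2 fold change 0.04, SE 0.21), and Dnm2, a dynamin (-0.18, SE 0.22). With 1 library left out March5 ranged from -0.03 to 0.16, and Dnm2 from -0.39 without delipidated 1 to -0.08 without delipidated 3. With the most counted part they had 0.14 and 0.11. Of 6 mitochondrial transport genes, 0 did so, and the most abundant were Kif5b, a kinesin heavy chain (-0.22, SE 0.16), and Rhot1, which links mitochondria to motors (0.07, SE 0.20). Rhot1 ranged from -0.05 to 0.14 over the libraries left out and had 0.43 with the most counted part, where Kif5b had -0.13. Kif5b measured 503, 542 and 511 CPM in the controls and 420, 428 and 486 CPM in the delipidated libraries. Cluh, which binds mRNAs of mitochondrial proteins, separated the groups the other way, at 34.1, 41.6 and 40.1 CPM against 42.8, 68.5 and 55.9 CPM (0.53, SE 0.30).

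Of 15 mtDNA replication and nucleoid genes, Top1mt, the mitochondrial topoisomerase, had an unadjusted p under 0.05. It was counted 2, 0 and 0 times in the controls and 109, 36 and 11 times in the delipidated libraries. These are few counts spread unevenly over the delipidated libraries. Top1mt passed the filter on low counts only through those libraries, so no conclusion is drawn from its p-value. Its fitted log2 fold change was 5.53 (SE 1.73), and it ranged from 4.61 without delipidated 1 to 8.50 without control 1, where no control count is left and the fitted value depends on the prior count.

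Of 14 mitochondrial transcription and RNA processing genes tested, Tefm and Hsd17b10 were higher at an unadjusted p under 0.05. Tefm, the elongation factor that works with the Polrmt product, measured 3.63, 6.95 and 3.72 CPM in the controls and 18.96, 7.74 and 12.4 CPM in the delipidated libraries. Hsd17b10, a subunit of mitochondrial RNase P, was counted 2, 0 and 6 times in the controls and 63, 60 and 31 times in the delipidated libraries. Hsd17b10 passed the filter on low counts only through the delipidated libraries, and no conclusion is drawn from its p-value. The groups did not overlap for either gene. In edgeR the log2 fold change was 1.45 for Tefm (SE 0.57) and 3.81 for Hsd17b10 (SE 1.39). That of Hsd17b10, with its few control counts, ranged from 3.22 without control 2 to 5.11 without control 3.

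Of 12 mitochondrial nucleotide supply genes, Tk2, the mitochondrial thymidine kinase, had an unadjusted p under 0.05. It measured 6.50, 5.26 and 3.12 CPM in the controls and 18.0, 13.6 and 8.54 CPM in the delipidated libraries, with no overlap. Its log2 fold change in the fit was 1.43 (SE 0.55). Of 8 nuclear regulators of mitochondrial biogenesis tested, 0 had an unadjusted p under 0.05. Gabpa, a DNA-binding subunit of GABP, was the most abundant per kb (edgeR log2 fold change -0.40, SE 0.18), followed by Yy1 (0.05, SE 0.23), which ranged from -0.11 to 0.14 over the libraries left out.

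Protein genes of the mitochondrial genome summed to 12265, 12622 and 19253 CPM in the controls and 18546, 18972 and 15354 CPM in the delipidated libraries. Control 3 was the highest library and the groups overlapped.

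The libraries carried the transcripts that mark their stage. All 16 of the 2-cell stage activation genes had counts in every library, with Usp17lb the most counted, and summed to 648, 302 and 627 CPM in the controls and 484, 608 and 698 CPM in the delipidated libraries. Usp17lb measured 106, 66.3 and 113 CPM in the controls and 119, 176 and 148 CPM in the delipidated libraries, without overlap. At an unadjusted p under 0.05 in edgeR, 1 of the 16, Usp17lb, was higher and 0 lower, against 1.15% and 1.74% of all genes, and 0 were called. All 13 maternal oocyte transcripts had counts in every library, with Dppa3 the most counted, and summed to 1955 to 2942 CPM.

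Among the markers of other cell types, only Epcam and Amhr2 had a median above that of all genes tested, per kb. The 12 cumulus and granulosa markers summed to 11.3 to 33.2 CPM, with Amhr2 the most counted and Foxl2 and Ptx3 at 0 in all libraries. Amhr2 measured 6.49 to 23.7 CPM and stood at percentile 66.3 of tested genes per kb. The 8 leukocyte markers summed to 2.77 to 18.0 CPM, with Coro1a the most counted. The 8 oviduct epithelium markers summed to 83.3 to 227 CPM, of which Epcam made up 96.9%, and Wfdc2 was at 0. Epcam measured 82.5 to 221 CPM and stood at percentile 95.3 of tested genes per kb.

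The 8 stromal markers did not overlap between the groups in their sum, though 0 of the 4 tested were called in edgeR. At an unadjusted p under 0.05, 2 of the 4, Vim and Col1a1, were lower, against 1.74% of all genes tested. Both passed the filter on low counts only through the controls, so no conclusion is drawn from their p-values. The 8 markers summed to 19.7, 18.7 and 30.3 CPM in the controls and 1.93, 3.50 and 4.09 CPM in the delipidated libraries, with Vim the most counted. Vim had 152, 145 and 300 counts in the controls and 0 in all 3 delipidated libraries (adjusted p = 0.0721 in edgeR), and both fits without a filter on low counts called it lower. Col1a1 had 11, 26 and 42 counts in the controls and 0 in the delipidated libraries. Col3a1 (10, 8 and 0 counts), Pdgfrb (16, 0 and 19) and Lum (0, 0 and 2) were likewise counted in controls only. Col1a2 and Pdgfra overlapped, and Dcn was counted only in delipidated 3. Of the cumulus and granulosa, leukocyte and oviduct markers, Lyz2, Tyrobp, Fshr, Inha, Inhba and Pgr were also counted in controls only. Foxj1 was counted in delipidated libraries only. None of these exceeded 20 counts in a library. Every delipidated library had fewer genes with a count than every control (17091 to 20158 against 20582 to 22855). The share of all genes counted in controls only was not computed, so no conclusion is drawn from markers counted in a single group. These markers, and those of the stromal list other than Vim, were chosen for naming after their values were seen. Their part in the values of the mitochondrial genes was not tested.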

How the data were processed

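The deposited files hold raw counts per exonic part, which the authors made from 2 x 150 paired reads with Trimmomatic 0.36, STAR 2.5.2b and featureCounts on mm10. Parts were summed per Ensembl gene. Of 33309 parts listed under several genes, 27968 overlapped annotated exons of only 1 of them and were assigned to it. The others, with 2.49% to 2.57% of counts, were left out. In 1 alternative all 33309 were left out. A read can count in several parts, so sums exceed reads and look more precise than they are. In 6 pairs of parts on opposite strands of 1 place the median ratio of counts was 1.0. Counting thus appeared to ignore strand, although the library kit is a stranded one, and strand was not used. The strand setting of the counting step was not known.

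The comparison used edgeR 4.0.16, run in R 4.3.3 (filterByExpr, minimum count 10 and total 15; TMM; quasi-likelihood test; no covariates). The common biological coefficient of variation was 0.663. The script was tested on simulated counts of the 16020 tested genes, of which 14794 passed the filter again. It recovered 14% of 2-fold, 32% of 4-fold, 44% of 8-fold and 80% of 16-fold changes. Changed genes lost to the filter counted as missed. The simulation did not model reads counted in several parts. Printed log2 fold changes use edgeR's prior count, and standard errors and intervals come from the fit without it. With 3 against 3 libraries the smallest two-sided exact permutation p is 0.1. CPM used the TMM-scaled totals of tested genes.

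Alternatives were DESeq2 1.42.0, its size factors, limma-voom 3.58.1, other filters, a replicate block, other gene counts, and each library left out. One alternative scaled by library totals without mitochondrial-genome and rRNA genes. Those totals replaced TMM, because TMM factors computed on top of them cancel the change. This was corrected after a first fit gave the values of TMM itself.

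Named genes were the 10 members, list genes called or with an unadjusted p under 0.05, otherwise the 2 most abundant per kb of a list, and the most counted and uncounted markers. Others are said to be chosen after their values were seen. Members and lists were chosen with earlier results of these data known. Exon sequences come from GENCODE vM21 transcripts. Near copies were sought with blastn 2.17.0 (at least 90% identity over 100 bases).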

Additional observations from a re-analysis of the deposited data

How the results depend on the processing

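Unique reads limit genes with near copies: the Tfb2m transcript matches the pseudogene Gm1818 at 99.3% over 1187 bases, Dnm1l matches Gm13719 at 91.1% over 2153 bases, and a stretch of Mfn1 of up to 208 bases recurs in 1080 other genes. Parts of Mff that overlap C430014B12Rik held 7.03% of its counts. Fis1 and Tfam had few counts and spread widely between libraries, and the part of depth in that spread was not tested.

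Without a filter on low counts DESeq2 called 9 genes higher and 40 lower and edgeR 5 and 25, and the other alternatives called 0. None called any of the 10 genes or any list gene. The log2 fold changes of Mfn2, Fis1, Mff and Tfam kept their sign in every alternative that gave a value; Fis1, Top1mt and Hsd17b10 had too few counts for the most counted part, and Top1mt and Hsd17b10 for the mean count of at least 50. With the most counted part the log2 fold change was 0.076 for Mfn1, 0.84 for Mfn2, -0.28 for Opa1, 0.37 for Dnm1l, 0.10 for Mff, 0.12 for Polg, -0.63 for Polrmt, -0.24 for Yme1l1, 0.14 for March5, 0.11 for Dnm2, -0.13 for Kif5b and 0.43 for Rhot1. Polrmt, at 0.01, had -0.018 with limma-voom and -1.63e-04 with library totals without mitochondrial and rRNA genes. With limma-voom Fis1 had -3.19, Dnm1l 0.10 and Polg -0.29. The causes were not tested.

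The replicate numbers did not pair the samples: after the group means were taken off, the deviations of same-numbered libraries had correlations of -0.08, 0.07 and 0.04. With the replicate block 0 genes were called, Polrmt had -0.016, Fis1 -1.91, Polg -0.26, and list genes with an unadjusted p under 0.05 numbered 3 higher and 0 lower.

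Leaving out 1 library gave log2 fold changes of -0.065 to 0.12 for Mfn1, 0.26 to 1.05 for Mfn2, -1.88 to -0.27 for Fis1, 0.12 to 0.50 for Mff, 0.06 to 0.68 for Tfam, -0.049 to 0.27 for Opa1, -0.20 to 0.36 for Dnm1l, -0.68 to 0.10 for Polg, -0.20 to 0.24 for Polrmt, -0.15 to 0.34 for Tfb2m, -0.033 to 0.16 for March5, -0.39 to -0.077 for Dnm2, -0.055 to 0.14 for Rhot1, 4.61 to 8.50 for Top1mt, 3.22 to 5.11 for Hsd17b10 and -0.11 to 0.14 for Yy1. List genes with an unadjusted p under 0.05 then numbered 2 to 6 higher and 0 to 3 lower.

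List genes with an unadjusted p under 0.05 were 3 higher with a mean count of at least 50, 3 lower with limma-voom, and 2 lower with library totals without mitochondrial and rRNA genes.

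Levels moved with the length used. Per kb of the most counted part, where Tfam lay above Mfn2 and Opa1, medians were 174 for Mfn1, 9.04 for Mfn2, 7.35 for Opa1, 122 for Mff, 11.8 for Tfam, 0.561 for Polg and 278 for Tfb2m. Per kb of coding parts, added after the data were seen, they were 160 for Mfn1, 43.1 for Mfn2, 65.7 for Opa1, 45.1 for Dnm1l, 125 for Mff, 12.2 for Tfam, 5.59 for Polg, 21.8 for Polrmt and 138 for Tfb2m. The union exon length of the annotation could change the level of Dnm1l alone (20.5), since for the other 9 genes it equals the part length.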
